A study of Homo sapiens with 12 samples.

Results

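Nuclear receptors other than the estrogen receptors were followed in T47D cells, a human breast carcinoma line that carries the estrogen receptor. The 9 genes were NR3C1, VDR, ESRRA, RXRA, RXRB, THRA, NR2F2, NR2F6 and NR4A1, taken as the rows of the count table with these symbols, of 25370 genes in all. All 9 were present in the table and had reads in all 12 libraries, and none was lost to a filter in the edgeR test used throughout. The DESeq2 alternative gave no adjusted p for NR3C1 and NR4A1 in 3 comparisons, anastrozole against vehicle and the combination against E2 and against anastrozole. Their tests are read against the share of all genes that changed. RNA-seq counts came from 4 groups of 3 libraries, lettered a, b and c: vehicle, anastrozole at 10 nM, E2 (17β-estradiol) at 0.1 nM, and anastrozole at 10 nM together with E2 at 0.1 nM. All groups, vehicle included, shared culture in charcoal-stripped serum, which holds little steroid, and a serum-free period before treatment. The sample labels give 12 hours of treatment and the study's methods give 24 hours, and the difference could not be settled. Anastrozole inhibits aromatase, the enzyme that makes estrogens from androgens, and the comparisons ask which transcripts it moved by itself, how these differ from those moved by E2, and what the combination did. The labels name 1 cell line and do not say whether the libraries of a group came from separate cultures. The p-values therefore rest on the spread between these libraries, which may be technical. The edgeR test also draws the spread of each gene towards that of all genes. Its SE, intervals and p-values can understate the spread of a gene whose own libraries vary more, as those of NR2F6 did.

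Nuclear receptors are transcription factors that bind DNA through a zinc-finger domain and, in most members, a small lipophilic ligand through a second domain. NR3C1 is the glucocorticoid receptor, a steroid receptor that acts as a homodimer and is held in the cytoplasm until its ligand arrives. VDR, the vitamin D receptor, and THRA, thyroid hormone receptor alpha, work as heterodimers with a retinoid X receptor, RXRA or RXRB. ESRRA, NR2F2, NR2F6 and NR4A1 are called orphan receptors because no classical hormone is established for them. ESRRA (ERR-alpha) drives genes of mitochondrial energy metabolism with the PGC-1 coactivators, NR2F2 (COUP-TFII) and NR2F6 (EAR2) act mainly as repressors, and NR4A1 (NUR77) is an immediate early gene whose transcript rises quickly after many stimuli. In luminal breast epithelium these receptors share the nucleus with estrogen receptor alpha, and several of them meet it at its binding sites.

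The receptors differ in a short stretch of the first zinc finger, the P box, that reads the DNA half-site. The P-box codons are shown because they group the 9 members by this stretch, and the measurements below follow the members gene by gene. Different codons need not mean different half-sites, and the DNA bound was not tested. In each line the 5 codons of this stretch stand as the coding strand of GRCh37, with capitals at the first, second and last codon, the positions known to set the choice of half-site.
NR3C1: GGAAGCtgtaaaGTT
VDR: GAAGGCtgcaaaGGC
ESRRA: GAGGCCtgcaaaGCC
RXRA: GAGGGGtgcaagGGC
RXRB: GAGGGTtgcaagGGC
THRA: GAGGGCtgcaagGGC
NR2F2: GAGGGCtgcaagAGC
NR2F6: GAGGGCtgcaagAGC
NR4A1: GAGGGCtgcaagGGC
The stretch lies at chr5:142693589-142693603 (minus strand) in NR3C1, chr12:48272759-48272773 (minus) in VDR, chr11:64074940-64074954 (plus) in ESRRA, chr9:137300812-137300826 (plus) in RXRA and chr6:33165678-33165692 (minus) in RXRB. It lies at chr15:96875623-96875637 (plus) in NR2F2, chr19:17355796-17355810 (minus) in NR2F6 and chr12:52448965-52448979 (plus) in NR4A1, and in THRA an intron splits it into chr17:38233850-38233861 and chr17:38240088-38240090 (plus). NR3C1 stood apart at all the capital positions, ESRRA carried its own second and last codons, and NR2F2 and NR2F6 had the same 15 bases. VDR, RXRA, RXRB, THRA and NR4A1 shared the last codon.

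Zinc-finger coding sequence was compared between 8 members, THRA excepted because its domain is of another length; whole coding sequences were not compared. NR2F2 and NR2F6 were the closest of these pairs. Over the 168 bases that encode the zinc-finger domain, 143 bases were identical between them (85.1%), against 136 (81.0%) for RXRA and RXRB. The first 111 bases of this domain lie in a single exon of each gene, at chr15:96875569-96875679 (plus strand) for NR2F2 and chr19:17355754-17355864 (minus strand) for NR2F6 in GRCh37, and are shown because the measurements of these close relatives part in the results below. Capitals mark the 16 bases that differ.
NR2F2: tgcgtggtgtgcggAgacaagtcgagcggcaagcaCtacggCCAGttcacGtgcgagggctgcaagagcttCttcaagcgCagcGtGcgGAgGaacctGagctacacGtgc
NR2F6: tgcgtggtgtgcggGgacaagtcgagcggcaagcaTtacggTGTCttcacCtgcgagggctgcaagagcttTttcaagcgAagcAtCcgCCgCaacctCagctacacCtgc
Of the 16 differences, 12 were at the last base of a codon, and 35 of the 37 codons specified the same amino acid. The GC content of the stretch was 62.2% in NR2F2 and 59.5% in NR2F6, whereas over all exons, untranslated parts included, it was 51.3% in NR2F2 and 70.9% in NR2F6, the second lowest and the highest of the 9 members. Whether reads were shared between such close stretches was not tested; reads that map to several places entered no gene's count.

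Libraries held 9914253 to 17009776 reads on genes (median 13538621), at which 3 counts, taken as the floor of detection for counting error only, corresponded to 0.176 to 0.303 CPM, counts scaled to library size. The members had 233 to 2913 reads in a library, far above the floor. The labelled cell type was checked against marker genes. All 9 luminal epithelial markers were above 1 CPM, with a summed level of 11094 to 11188 CPM in vehicle, 10134 to 10900 CPM in anastrozole, 10479 to 10732 CPM in E2 and 10741 to 10972 CPM in the combination, so that every treated library lay below every vehicle library. Of these 9 markers 1 fell with anastrozole, 5 with E2 and 0 with the combination (3 at unadjusted p under 0.05 in edgeR's test). Of all genes 3.67%, 12.0% and 5.04% passed in either direction. KRT19 fell most clearly with E2 (-0.16, adjusted p = 2.9e-08). KRT8, FOXA1 and ESR1 changed by -0.0965, -0.143 and -0.137 with E2 (adjusted p = 0.0034, 0.00033 and 0.0038). With a GC trend removed as described below, KRT19 was at -0.054 (adjusted p = 0.11) and KRT8 at -0.026 (adjusted p = 0.61). In the same fit FOXA1 was at -0.137 (adjusted p = 0.00014) and ESR1 at -0.178 (adjusted p = 9.4e-06). The part of the markers' shift in the receptors' values was not tested. Of 5 basal and myoepithelial markers 3 were above 1 CPM, with KRT5 at a mean of 0.0197 CPM. Their sum was 18.4 to 21 CPM in vehicle, 19.3 to 23 CPM in anastrozole, 19.4 to 23.4 CPM in E2 and 22.1 to 23.3 CPM in the combination. ACTA2, the highest of them, rose with the combination by 0.375 (adjusted p = 0.022; called in 2 of 6 fits without 1 library, with 0.299 to 0.449 on the log2 scale and adjusted p up to 0.25 over all alternatives), the group in which NR2F2 was lowest, and its part in that result was not tested. Of 5 fibroblast markers only COL1A1 was above 1 CPM, and COL1A2, COL3A1 and DCN were near 0. The fibroblast sum was 91.7 to 95.9 CPM in vehicle, 85.2 to 93.1 CPM in anastrozole, 80.4 to 91 CPM in E2 and 94.8 to 100 CPM in the combination. Of 5 immune markers only CD68, a lysosomal protein of macrophages that other cells also make, was above 1 CPM. The immune sum was 3.27 to 4.82 CPM in vehicle, 5.76 to 7.5 CPM in anastrozole, 5.14 to 6.11 CPM in E2 and 5.24 to 6.08 CPM in the combination, and PTPRC was at a mean of 0.0194 CPM. CD68 rose with anastrozole by 0.71 (adjusted p = 0.0051) and with E2 by 0.55 (adjusted p = 0.015). The former was lost without vehicle library b (0.60) or anastrozole library a (0.55), the latter without vehicle library a or b or E2 library a or c (0.435 to 0.54), and both with limma-voom (adjusted p up to 0.20 and 0.11 over all alternatives); its part in the receptors' values was not tested. In bulk RNA, fewer cells of a type and less RNA per cell cannot be told apart.

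All 9 receptors were expressed at moderate levels, and the order of their levels per transcript length spanned RXRA at the top and NR3C1 at the bottom. Levels between genes were compared as RPKM (CPM per kilobase of the MANE Select transcript, the reference transcript of each gene). In vehicle, RXRA was at 33.8 ± 0.25 RPKM (SD, n = 3), ESRRA at 28.4 ± 0.59, NR2F6 at 25.2 ± 3.27 and RXRB at 20.8 ± 1.11. VDR followed at 17.03 ± 1.24 RPKM, THRA at 14.3 ± 0.44, NR2F2 at 14.2 ± 0.96, NR4A1 at 9.92 ± 0.30 and NR3C1 at 3.32 ± 0.35. Among neighbours in this order, ESRRA and NR2F6 overlapped in their library values, as did THRA and NR2F2, and the other neighbours were separated in the vehicle libraries. The order depended on the length used: with the length of all annotated exons, an alternative chosen after seeing the data, NR2F6 was at 22.6 RPKM, ESRRA at 20.8, RXRA at 15.5 and NR4A1 at 3.38, because the long annotated exons of RXRA and NR4A1 exceed their reference transcripts.

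**Figure D1:**
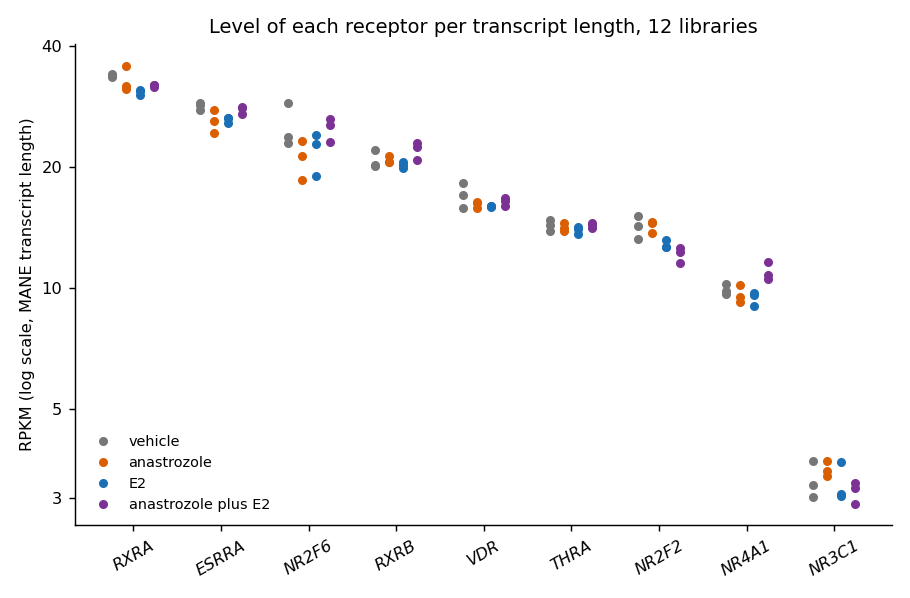
Level of each receptor in RPKM (log axis), 1 point per library, coloured by group and ordered by the vehicle mean. RXRA reached 30.3 to 35.7 RPKM over the 12 libraries and NR3C1 2.91 to 3.71 RPKM, and the 4 groups of a gene lay close together beside the distance between genes.

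The treatments moved these receptors little. Across the 12 libraries the highest value of a member was 1.08 (THRA) to 1.56 (NR2F6) times its lowest. Against vehicle, in the quasi-likelihood F test of edgeR (p adjusted by Benjamini-Hochberg over 21132 genes), anastrozole changed 1 of 9 members, NR2F6, where 3.67% of all genes changed. E2 changed 3 of 9, RXRA, NR2F2 and NR2F6, all lower, where 12.0% of all genes changed. The combination changed 1 of 9, NR2F2, which was lower, where 5.04% of all genes changed. The same 3 shares are the background for the gene lists below. With limma-voom, the setting nearest to the study's own processing, 0, 1 and 0 members passed, the 1 being RXRA. The median log2 fold change of the 9 members was -0.037 with anastrozole, -0.091 with E2 and -0.029 with the combination, and that of all tested genes was 0 in each. The comparisons share the vehicle libraries, so their values are set side by side and are not independent. Where groups are said not to overlap, this describes the libraries only. The share of all genes whose groups separate in this way was not counted.

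**Figure D2:**
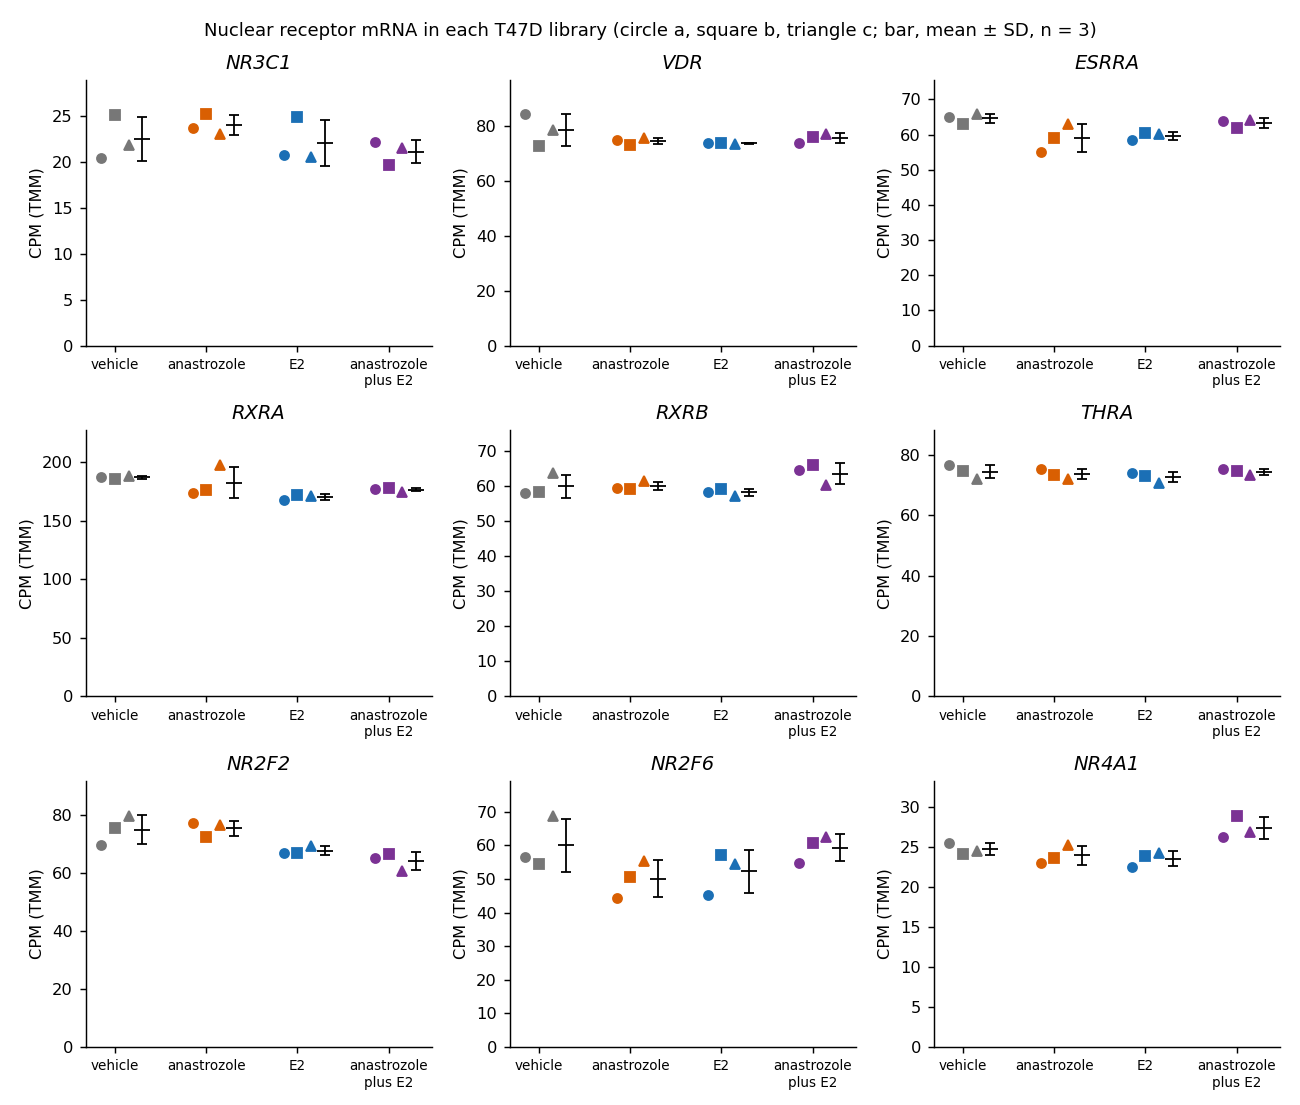
CPM after TMM scaling (linear axis from 0) of each receptor in each library, by group; circles, squares and triangles are libraries a, b and c, and the bar is the mean ± SD (n = 3). NR2F2 lies lower in E2 and in the combination than in vehicle and anastrozole, NR2F6 varies most within groups, and VDR and THRA overlap between all groups.

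NR2F2, which can repress by competing for half-sites of other receptors, was the member with the clearest change. Its level was 69.8, 75.4 and 79.9 CPM in libraries a, b and c of vehicle, and 77.2, 72.5 and 76.8 CPM in those of anastrozole. In the E2 libraries it was 66.9, 66.9 and 69.5 CPM, and under the combination 65.1, 66.6 and 60.8 CPM. All libraries with E2, alone or in combination, lay below all those without it, the nearest values being 69.5 CPM in E2 library c and 69.8 CPM in vehicle library a. Against vehicle, NR2F2 fell with the combination by 0.23 on the log2 scale (SE 0.05, interval -0.32 to -0.13, as all intervals here at 95%, adjusted p = 0.00038), a fold of 0.855. It fell with E2 by 0.15 (SE 0.05, adjusted p = 0.028), and with anastrozole its log2 fold change was 0.00975 (interval -0.10 to 0.12, adjusted p = 1). The combination was also lower than anastrozole, by 0.24 (SE 0.058, adjusted p = 0.0041), where 2.90% of all genes changed. Between the combination and E2 the difference was -0.077 (interval -0.17 to 0.017, adjusted p = 0.42), where 6.74% of all genes changed, and the groups did not overlap.

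The fall of NR2F2 with the combination was called in 5 of 6 fits that left out 1 library and in 8 of 9 with other settings, with adjusted p between 3.5e-05 and 0.12 over them. Without vehicle library c it was -0.175 (adjusted p = 0.051), and with limma-voom -0.22 (adjusted p = 0.12). The difference from anastrozole was likewise called in 5 of 6 and 8 of 9 (adjusted p between 7e-06 and 0.14); without library c of the combination it was -0.20 (adjusted p = 0.14). The smaller fall with E2 was called in 3 of 6 and 5 of 9 (adjusted p between 0.0051 and 0.34), and was lost without vehicle library c (-0.10, adjusted p = 0.34), E2 library a (-0.14, adjusted p = 0.094) or E2 library b (-0.14, adjusted p = 0.12).

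The region before the NR2F2 transcript is shown because this receptor was the only member whose change against vehicle was called both with and without the GC trend described below. The 250 bases before the start of its MANE Select transcript lie at chr15:96873679-96873928 (plus strand, GRCh37) and have 73.6% GC; capitals mark TATAA on either strand.
NR2F2 promoter: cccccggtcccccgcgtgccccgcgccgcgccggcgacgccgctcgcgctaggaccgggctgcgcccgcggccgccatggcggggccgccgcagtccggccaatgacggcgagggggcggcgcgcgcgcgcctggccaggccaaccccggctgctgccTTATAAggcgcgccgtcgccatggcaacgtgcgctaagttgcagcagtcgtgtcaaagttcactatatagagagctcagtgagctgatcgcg
TATAA, or TTATA for the same motif on the other strand (both overlap in the run shown), occurred in this window in NR2F2 and NR2F6 and in no other member, and 15.6% of 18921 windows of the same kind in the annotation held it. The half-site AGGTCA, which many nuclear receptors bind, and which reads TGACCT on the other strand, occurred in none of the 9 windows and in 9.7% of all windows. The NR2F2 and NR2F6 windows were most alike over 30 bases, of which 25 were identical, 94 to 65 bases before the NR2F2 start and 113 to 84 bases before the NR2F6 start. A match of letters is a description and no evidence of binding.

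NR2F6, a repressor related to NR2F2, differed most between libraries of 1 group. Its level was 56.5, 54.6 and 68.9 CPM in vehicle, 44.3, 50.7 and 55.3 CPM under anastrozole, 45.2, 57.2 and 54.4 CPM under E2, and 54.8, 60.6 and 62.6 CPM with the combination. Vehicle library c was the highest of all and anastrozole library a the lowest, and each treatment overlapped vehicle. NR2F6 shares 8.32% of its exon bases with a protein-coding gene on the same strand, which the count table does not list by its annotated name. The part of this overlap in the counts was not tested. NR2F6 fell with anastrozole by 0.27 on the log2 scale (SE 0.064, adjusted p = 0.0038) and with E2 by 0.19 (SE 0.057, adjusted p = 0.012), while the combination gave -0.018 (interval -0.12 to 0.084, adjusted p = 0.94). It was higher with the combination than with anastrozole by 0.25 (adjusted p = 0.0098; called in 3 of 6 fits without 1 library) and than with E2 by 0.17 (adjusted p = 0.02; called in 3 of 6). Without vehicle library c the change with anastrozole was -0.15 (adjusted p = 0.45) and that with E2 -0.077 (adjusted p = 0.57); without anastrozole library a the former was -0.175 (adjusted p = 0.26), and without E2 library a the latter was -0.10 (adjusted p = 0.33). Over all alternatives the adjusted p ran from 2e-05 to 0.72 with anastrozole and from 0.00064 to 1 with E2. The higher level with the combination was lost without library b or c of the combination, or library a of the other group: to 0.23 (adjusted p = 0.10), 0.21 (0.20) and 0.16 (0.30) against anastrozole, and to 0.16 (0.10), 0.135 (0.22) and 0.084 (0.47) against E2, over adjusted p of 6.1e-05 to 0.75 and 0.0021 to 1 in all alternatives.

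NR2F6 also had the largest departure from additivity. The interaction asks whether the combination differs from the sum of both single changes on the log2 scale, and it was 0.44 for NR2F6 (SE 0.094, interval 0.26 to 0.62, adjusted p = 0.00041), as each single treatment lowered it and the combination stood near vehicle. It was called in each of 12 fits without 1 library (0.325 to 0.52 on the log2 scale), and in 4 of 8 other settings (adjusted p between 4.4e-06 and 0.83 over all). ESRRA had an interaction of 0.215 (SE 0.077, adjusted p = 0.048), called in 2 of 12 fits without 1 library and 2 of 8 other settings, with adjusted p of 0.0073 to 0.90. These were 2 of 9 members, where 10.9% of all genes had an interaction past the threshold.

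These values have to be read beside a property of the libraries. Across 10825 genes with a mean log2 CPM of 3 or more, fold changes followed exon GC content. Spearman's rho was -0.53 for anastrozole and -0.55 for E2 against vehicle, -0.027 for the combination against vehicle, 0.69 for the combination against E2, and 0.71 for the interaction; genes are not independent replicates. At the GC content of NR2F6, the fitted trend of single libraries ran from -0.29 in anastrozole library a to 0.17 in vehicle library c on the log2 scale, the libraries where NR2F6 itself was lowest and highest. Over the 12 libraries the log2 CPM of NR2F6 had Pearson's r of 0.8 with this trend, ESRRA 0.95 and NR2F2 -0.095, values that share the libraries' reads. In the 2-point bin of GC content that holds NR2F6 there were 12 genes, with a median log2 fold change of -0.27 with anastrozole and -0.16 with E2.

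**Figure D3:**
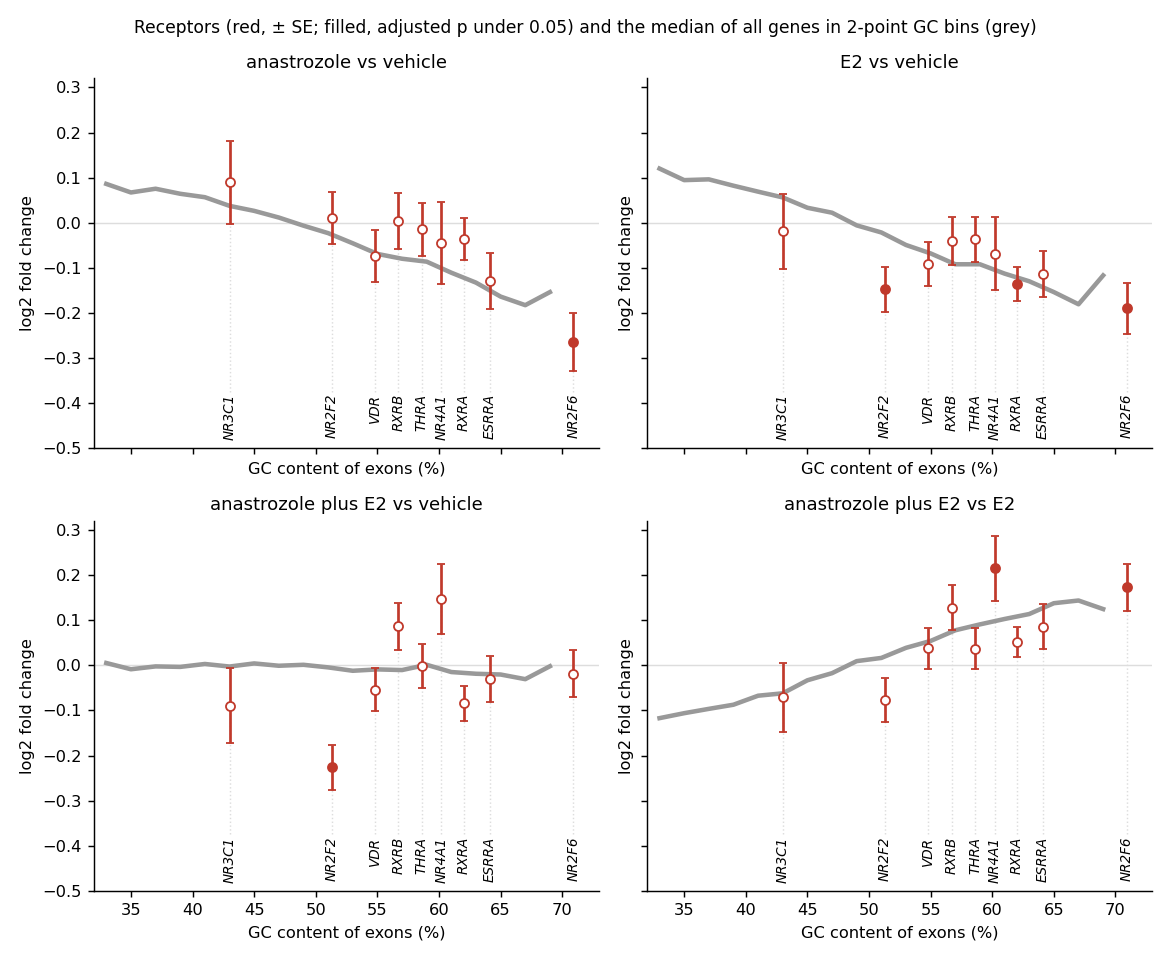
Log2 fold change of the 9 receptors (red, ± SE, filled where the adjusted p is under 0.05) against the GC content of their exons in percent, with the median of all genes of at least 3 log2 CPM in 2-point bins (grey line, bins of at least 20 genes). NR2F6 at 70.9% GC lies beyond the last bin drawn, at 69% GC. With anastrozole NR2F6 is at -0.265 and that bin at -0.154, and with the combination NR2F6 lies near the end of the line. NR2F2 at 51.3% GC lies below the grey line with E2 and with the combination.

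With the GC trend of each library removed as an offset, NR2F2 was still lower with the combination than with vehicle (-0.22, adjusted p = 0.00015) and than with anastrozole (-0.26, adjusted p = 7.5e-05), and its change with E2 was -0.12 (adjusted p = 0.097). NR2F6 changed by -0.070 with anastrozole (adjusted p = 0.67) and by 0.00975 with E2 (adjusted p = 0.99). It differed by 0.072 between the combination and anastrozole (adjusted p = 0.75) and by -0.00314 between the combination and E2. Its interaction was 0.066 (adjusted p = 0.83). The interaction of ESRRA was -0.048 (adjusted p = 0.89). Of 9 members, 0 passed with anastrozole (2.90% of all genes did in this fit), 0 with E2 (7.54%) and 1 with the combination against vehicle (6.02%). Between treatments, 1 passed in anastrozole against E2 (2.44%), 0 in the combination against E2 (0.880%), 2 in the combination against anastrozole (2.02%) and 0 in the interaction (2.61%). The 2 in the combination against anastrozole were NR2F2 and RXRA, where without the offset they were NR2F2 and NR2F6. NR2F2 was the member past the threshold between anastrozole and E2 in this fit, at 0.16 higher with anastrozole (adjusted p = 0.029, and 0.12 to 0.53 in all other alternatives), where without the offset no member passed and 1.33% of all genes did. An offset of this kind also removes any change that truly follows GC content, and what gave rise to the trend was not tested.

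**Figure D4:**
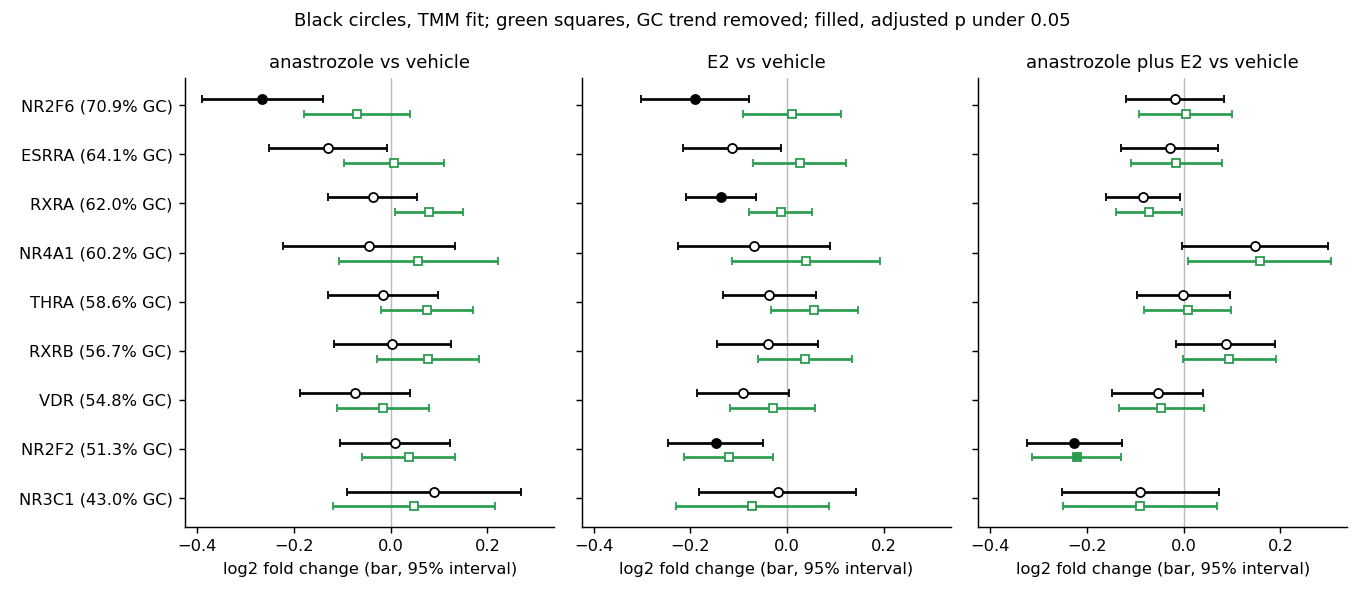
Log2 fold change against vehicle of each receptor, ordered by exon GC content, with bars for the 95% interval; black circles are the TMM fit, green squares the fit with the GC trend removed, and filled symbols have an adjusted p under 0.05. NR2F6 moves from -0.27 to -0.070 with anastrozole, and NR2F2 stays at -0.23 and -0.22 with the combination.

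RXRA and RXRB are the shared heterodimer partners of the class. RXRA had 187, 186 and 189 CPM in the vehicle libraries, 174, 177 and 198 CPM under anastrozole, 168, 172 and 171 CPM under E2, and 177, 178 and 175 CPM with the combination. Vehicle libraries were close together and above all those of E2 and of the combination, and anastrozole library c stood above every other library. RXRA fell with E2 by 0.14 on the log2 scale (SE 0.037, interval -0.21 to -0.063, adjusted p = 0.0041), in all 6 fits without 1 library and in 7 of 9 others. With the GC trend removed it was -0.013 (adjusted p = 0.91; range over alternatives 0.0028 to 0.93). The log2 fold change was -0.037 (interval -0.13 to 0.055) with anastrozole and -0.084 (interval -0.16 to -0.0084, adjusted p = 0.25) with the combination. The combination differed from anastrozole by -0.0495 (adjusted p = 0.71), and by -0.15 with the GC trend removed (adjusted p = 0.002; range 0.00069 to 0.95).

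RXRB had 57.9, 58.2 and 63.6 CPM in vehicle, 59.4, 59.3 and 61.5 CPM under anastrozole, 58.4, 59.2 and 57.2 CPM under E2, and 64.6, 66.0 and 60.2 CPM with the combination. The combination lay above E2 in all libraries, by 0.13 on the log2 scale (interval 0.03 to 0.23), which did not pass the threshold (adjusted p = 0.11). Against vehicle its log2 fold changes were 0.00368, -0.041 and 0.087 with anastrozole, E2 and the combination (adjusted p = 1, 0.72 and 0.45). RXRB shares 9.26% of its exon bases with SLC39A7, a zinc transporter on the opposite strand, and the strand setting of the counting is not given in the sources used here. SLC39A7 fell with E2 by 0.13 (adjusted p = 0.0043; -0.074, adjusted p = 0.14, with the GC trend removed) and with the combination by 0.11 (adjusted p = 0.047), the latter in 2 of 6 fits without 1 library (lost without vehicle library a or c or library b or c of the combination, adjusted p up to 0.47). The third retinoid X receptor, RXRG, had at most 1 read in a library. Of 13 receptors that pair with a retinoid X receptor, 12 were tested; 0 passed with anastrozole (4 at unadjusted p under 0.05), and 1, RARA, rose with E2 and with the combination. Of 10 retinoic acid target genes, 0 passed with any treatment against vehicle in edgeR's test (0, 2 and 3 at unadjusted p under 0.05), with medians of 0.024, 0.20 and 0.30 on the log2 scale. These medians include genes of low counts, such as RARB with 3 to 22 reads in a library.

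THRA was the steadiest member. Its level was 76.7, 74.7 and 72.1 CPM in vehicle, 75.4, 73.4 and 72.2 CPM under anastrozole, 73.9, 73.1 and 70.8 CPM under E2, and 75.3, 74.7 and 73.3 CPM with the combination. All groups overlapped, and the log2 fold changes against vehicle were -0.015 (interval -0.13 to 0.10), -0.037 (-0.13 to 0.059) and -0.00042 (-0.096 to 0.095). THRA shares 6.45% of its exon bases with NR1D1 (REV-ERBα, a repressor of the circadian clock) on the opposite strand, and NR1D1 rose with E2 by 0.31 (adjusted p = 0.004) and with the combination by 0.285 (adjusted p = 0.018), the latter lost without vehicle library b or library b or c of the combination (0.25 to 0.28, adjusted p up to 0.17). Of 5 thyroid hormone target genes, HR, a corepressor that binds thyroid hormone receptors, fell with every treatment, in all 6 fits without 1 library of each comparison. With the GC trend removed its values were -0.25, -0.29 and -0.24 with anastrozole, E2 and the combination (adjusted p = 0.00055, 1.2e-06 and 9e-05), and with limma-voom the adjusted p was 0.11, 0.0045 and 0.069. Its mean went from 67.5 CPM in vehicle to 52.0, 50.4 and 56.8 CPM with anastrozole, E2 and the combination (log2 fold changes -0.38, -0.425 and -0.25, adjusted p = 9.2e-07, 4.9e-13 and 0.00011). KLF9, which thyroid hormone and glucocorticoids both induce, rose with E2 by 0.36 (adjusted p = 0.0037), from 14.2 to 18.3 CPM; the medians of the list were 0.13, 0.36 and 0.17.

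VDR had 84.3, 72.8 and 78.6 CPM in vehicle, 74.9, 73.2 and 75.6 CPM under anastrozole, 74.0, 73.7 and 73.4 CPM under E2, and 73.9, 76.0 and 77.3 CPM with the combination. Vehicle spanned the values of all treated groups, and the E2 libraries lay closest together of the 4 groups. The log2 fold changes were -0.0745 (interval -0.19 to 0.039), -0.091 (-0.19 to 0.0038) and -0.054 (-0.15 to 0.041), none past the threshold; with E2 it passed without vehicle library b (-0.14, adjusted p = 0.041; adjusted p = 0.24 with all libraries). Of 6 vitamin D target genes, TRPV6, an epithelial calcium channel, fell from 81.2 CPM in vehicle to 72.3 CPM with E2 (-0.17, adjusted p = 0.007) and to 70.7 CPM with the combination (-0.20, adjusted p = 0.0021). CLMN, a calponin-family protein, rose with anastrozole from 164 to 183 CPM (0.16, adjusted p = 0.029). The falls of TRPV6 were called in 4 and 3 of 6 fits without 1 library, being lost without vehicle library c or E2 library c (-0.144 and -0.127) and without vehicle library c or library b or c of the combination (-0.17 to -0.16), with adjusted p up to 0.15 in each. The rise of CLMN was called in 1 of 6 such fits, the one without anastrozole library c (0.13 to 0.18 over the 6, adjusted p up to 0.25). The median of the list was 0.14, -0.12 and 0.30 on the log2 scale. It includes genes near the floor, such as CD14 at a mean of 0.248 CPM, and is no measure of receptor activity. With the combination TRPV6 was at -0.20 and CLMN at -0.020, both below that median. Of 19 tested genes that make, break down or carry the ligands of these receptors, 1 changed: CYP27B1, the enzyme of the last activating step of vitamin D, rose with E2 from 5.70 to 7.83 CPM (0.45, adjusted p = 0.017), a call lost without vehicle library b or c or E2 library a (0.37 to 0.40, adjusted p up to 0.14).

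NR3C1 was the lowest member per length and had 20.5, 25.1 and 21.9 CPM in vehicle, 23.7, 25.2 and 23.04 CPM under anastrozole, 20.7, 24.9 and 20.5 CPM under E2, and 22.1, 19.7 and 21.5 CPM with the combination. All treated groups overlapped vehicle, and the combination lay below anastrozole in every library (-0.18, interval -0.35 to -0.016, adjusted p = 0.29). Against vehicle its log2 fold changes were 0.090 (interval -0.091 to 0.27), -0.0195 (-0.18 to 0.14) and -0.090 (-0.25 to 0.072). Of 12 genes induced by glucocorticoids, 0 passed with anastrozole (1 at unadjusted p under 0.05 in edgeR's test), 4 rose with E2 and 3 with the combination (of all genes 3.67%, 12.0% and 5.04% passed in either direction), with medians of 0.072, 0.11 and 0.089. With E2 these were KLF9, GLUL (glutamine synthetase, 0.093, adjusted p = 0.022), ERRFI1 (an inhibitor of EGF receptor signalling, 0.19, adjusted p = 0.028; 0.14, adjusted p = 0.18, with the GC trend removed) and CEBPD (0.43, adjusted p = 0.031). With the combination they were MT2A, CEBPD (0.51, adjusted p = 0.0092) and ERRFI1 (0.21, adjusted p = 0.022). Of these calls those of KLF9 and MT2A held in all 6 fits without 1 library. GLUL and ERRFI1 were called with E2 in 2 and 3 of 6 such fits (0.083 to 0.0996 and 0.146 to 0.208 on the log2 scale) and CEBPD in 3 of 6, with 0.31 (adjusted p = 0.30) without E2 library b. With the combination CEBPD was called in 4 of 6, with 0.35 (adjusted p = 0.31) without library c of the combination, and ERRFI1 in 2 of 6 (0.188 to 0.242). MT2A, a metallothionein that zinc also induces, had the largest change of the list, from 8.12 ± 1.14 CPM in vehicle to 16.3 ± 0.88 CPM with the combination (1.01, SE 0.11, adjusted p = 3e-18). MT2A stood at 9.53 CPM under anastrozole and at 8.15 CPM under E2, and its interaction was 0.77 (adjusted p = 0.00026; 0.67, adjusted p = 0.0055, with the GC trend removed; adjusted p up to 0.012 over all alternatives). FKBP5 and TSC22D3, 2 direct targets of the receptor, had log2 fold changes of 0.026 and 0.021 with E2 (adjusted p = 0.73 and 0.91); they were chosen after their values were seen.

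ESRRA had 64.9, 63.1 and 65.7 CPM in vehicle, 55.2, 59.1 and 63.1 CPM under anastrozole, 58.4, 60.4 and 60.0 CPM under E2, and 63.8, 61.7 and 64.3 CPM with the combination. Every library of anastrozole and E2 lay below every vehicle library; anastrozole library c at 63.09 CPM nearly reached vehicle library b at 63.11 CPM. Against vehicle its log2 fold changes were -0.13 (interval -0.25 to -0.0084, adjusted p = 0.28), -0.11 (-0.22 to -0.012, adjusted p = 0.15) and -0.029 (-0.13 to 0.071, adjusted p = 0.87), none past the threshold. With the GC trend removed ESRRA was at 0.0064 with anastrozole, 0.026 with E2 (adjusted p = 0.87) and -0.015 with the combination, so the 2 falls were not kept. ESRRA shares 9.16% of its exon bases with TRMT112 on the opposite strand, an activator of methyltransferases. TRMT112 fell with anastrozole by 0.18 (adjusted p = 0.02) and with E2 by 0.20 (adjusted p = 0.00012). With the GC trend removed these were -0.10 (adjusted p = 0.22) and -0.11 (adjusted p = 0.054). The call with anastrozole was kept in 3 of 6 fits without 1 library. It was lost without vehicle library a or c or anastrozole library c (-0.158, -0.196 and -0.136), and with DESeq2 or limma-voom. The strand of the reads could not be used to part the pair. Of 11 coactivators and targets of ERR-alpha, 1 fell with anastrozole, 3 rose with E2 and 1 rose with the combination (medians 0.065, 0.037 and 0.068), beside 3.67%, 12.0% and 5.04% of all genes. PPRC1, a relative of the PGC-1 coactivators, fell with anastrozole by 0.22 (adjusted p = 0.043), a call kept in 1 of 6 fits without 1 library, the one without anastrozole library c, and in 4 of 9 other settings (-0.15, adjusted p = 0.19, with the GC trend removed; 0.0043 to 0.27 over all). With E2, PPARGC1A, which encodes PGC-1α, rose from 2.78 to 4.38 CPM (0.65, adjusted p = 0.0096), CYCS (cytochrome c) from 226 to 270.1 CPM (0.26, adjusted p = 1.8e-11) and PDK4, a brake on glucose oxidation, from 5.01 to 7.77 CPM (0.63, adjusted p = 0.00041). PDK4 also rose with the combination (0.49, adjusted p = 0.02), where PPARGC1A was at 3.08 CPM; the interaction of PPARGC1A was -1.05 (SE 0.28, adjusted p = 0.0036). Without vehicle library c the rise of PPARGC1A with E2 was 0.415 (adjusted p = 0.25) and its interaction -0.81 (adjusted p = 0.058), and without vehicle library a the rise was 0.60 (adjusted p = 0.053). The rise of PDK4 with the combination was called in 2 of 6 fits without 1 library (0.395 to 0.608 on the log2 scale, adjusted p up to 0.23).

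NR4A1, the immediate early member, had 25.5, 24.0 and 24.4 CPM in vehicle, 22.9, 23.5 and 25.2 CPM under anastrozole, 22.4, 23.8 and 24.2 CPM under E2, and 26.2, 28.9 and 26.8 CPM with the combination. The combination was above every other library of the experiment. It was higher than E2 by 0.22 on the log2 scale (SE 0.072, adjusted p = 0.042), a fold of 1.16, and this call was lost in each of the 6 fits without 1 library (0.18 to 0.24 on the log2 scale, adjusted p = 0.059 to 0.22) and with the GC trend removed (0.12, adjusted p = 0.66). With NR2F6 it made 2 of 9 members past the threshold in that comparison, where 6.74% of all genes passed. Against vehicle the combination gave 0.15 (interval -0.0033 to 0.30, adjusted p = 0.35), and anastrozole and E2 gave -0.045 and -0.0685 (adjusted p = 0.89 and 0.67). NR4A1 overlaps the antisense gene NR4A1AS over 10.3% of its exon bases. Its relatives NR4A2 and NR4A3 were at 2.05 and 0.492 CPM in vehicle. Of 11 immediate early genes, 0 passed with anastrozole (2 at unadjusted p under 0.05 in edgeR's test), 2 rose with E2 and 3 with the combination (all genes 3.67%, 12.0% and 5.04%), with medians of -0.022, 0.26 and 0.42. ATF3, a stress-induced factor, rose from 29.0 to 39.0 CPM with E2 (0.43, adjusted p = 1.1e-08) and to 38.7 CPM with the combination (0.42, adjusted p = 1.9e-07). EGR3, a known estrogen-induced gene, rose from 1.86 to 3.11 CPM with E2 (0.75, adjusted p = 0.014) and to 3.81 CPM with the combination (1.04, adjusted p = 0.00016), and FOS rose with the combination from 2.32 to 3.81 CPM (0.715, adjusted p = 0.016). The rises of ATF3 and that of EGR3 with the combination held in all 6 fits without 1 library. That of EGR3 with E2 was lost without vehicle library b or c or E2 library b (0.60 to 0.70, adjusted p up to 0.17), and that of FOS without vehicle library c or library a of the combination (0.65 and 0.69, adjusted p up to 0.18 over all alternatives).

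The human family of 48 nuclear receptors holds 39 others beside the 9 members. All 39 were in the table: 15 were under 1 CPM as the mean of the 12 libraries, of which 3 had 0 counts in every library, 6 were between 1 and 10 CPM and 18 were at 10 CPM or above. PGR, the progesterone receptor, was highest at 2195 CPM in vehicle, followed by ESR1, estrogen receptor alpha, at 182.5 CPM. Of the 36 tested, 4 passed with anastrozole, 8 with E2 and 5 with the combination, where 3.67%, 12.0% and 5.04% of all genes passed. ESR1 fell with E2 by 0.14 on the log2 scale (adjusted p = 0.0038) and PGR with anastrozole by 0.13 (adjusted p = 0.026). The call of PGR was lost without vehicle library b (-0.079, adjusted p = 0.44), vehicle library c (-0.13, 0.24), anastrozole library a (-0.11, 0.18) or anastrozole library b (-0.14, 0.16). It was also lost with filterByExpr, DESeq2 or limma-voom, at -0.13 in each (adjusted p = 0.091, 0.11 and 0.24). With the GC trend removed it held (-0.18, adjusted p = 1e-08). RORA, an activator of clock genes, rose most with E2, from 7.18 to 11.5 CPM (0.68, adjusted p = 2.7e-06), and rose with the combination by 0.40 (adjusted p = 0.028). The clock repressor NR1D2 rose with anastrozole by 0.23 (adjusted p = 0.011) and with E2 by 0.31 (adjusted p = 1e-07). RARA, the retinoic acid receptor that pairs with RXRA, rose with E2 from 93.1 to 103.2 CPM (0.15, adjusted p = 0.011; 0.28, adjusted p = 8.3e-10, with the GC trend removed) and with the combination to 113.8 CPM (0.29, adjusted p = 1.7e-08). With anastrozole RARA gave -0.14 (adjusted p = 0.16; -0.00675 with the GC trend removed), and anastrozole stood below E2, at -0.28 on the log2 scale (adjusted p = 5.3e-06). ESR2 and NR6A1 rose with E2 by 0.66 (adjusted p = 0.046; 1.81 to 2.92 CPM) and 0.28 (adjusted p = 0.039). In the fits without 1 library, the E2 calls of ESR1, RORA and NR1D2 and the combination's call of RARA held in all 6. RARA with E2 held in 4 of 6 (lost without vehicle library b or E2 library c, 0.11 and 0.12), and NR1D2 with anastrozole (0.19 to 0.28), RORA with the combination (0.335 to 0.48) and NR6A1 with E2 (0.22 to 0.40) in 2 of 6 each. ESR2 held in 1 of 6 (0.53 to 0.975), and with the GC trend removed it was 0.64 (adjusted p = 0.075).

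**Figure D5:**
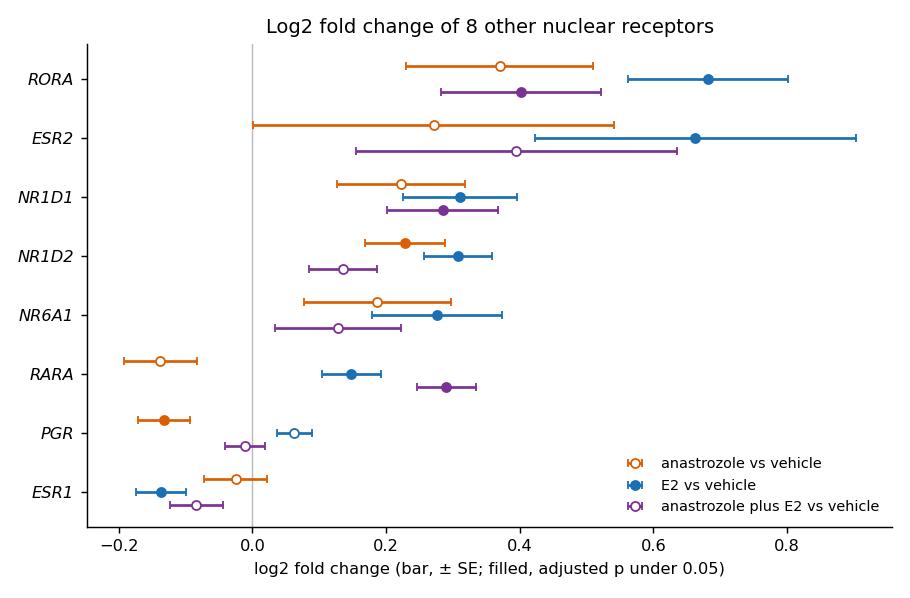
Log2 fold change against vehicle (± SE) of 8 other nuclear receptors that passed the threshold with a treatment; filled symbols have an adjusted p under 0.05. RORA is highest with E2 at 0.68.

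Coregulators that these receptors share moved slightly. Of 10, 0 passed with anastrozole (5 at unadjusted p under 0.05 in edgeR's test). With E2, the corepressor subunit TBL1XR1 rose from 424 to 482 CPM (0.185, adjusted p = 2.7e-07), the corepressor NRIP1, a known estrogen-induced gene, rose by 0.16 (adjusted p = 0.00087) and the Mediator subunit MED1 by 0.099 (adjusted p = 0.039). With the GC trend removed these were 0.091 for TBL1XR1 (adjusted p = 0.019), 0.076 for NRIP1 (adjusted p = 0.18) and 0.060 for MED1 (adjusted p = 0.29). MED1 was called in 1 of 6 fits without 1 library, and without E2 library c it was 0.056 (adjusted p = 0.50). NRIP1 was the 1 that rose with the combination (0.13, adjusted p = 0.028), in 2 of 6 fits without 1 library (0.108 to 0.171, adjusted p up to 0.24 over all alternatives).

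The genes whose profile over the 12 libraries was most like that of a member, by Pearson's r of log2 CPM among 11012 genes of at least 3 log2 CPM, differed between the members. For NR2F2 these were TPM1 (0.90), LINC00472 (0.90) and CD24 (0.89), and for RXRA they were CPAMD8 (0.93), ATP2A3 (0.92) and DNASE2 (0.92). For NR2F6 they were ACOT2 (0.97), MAF1 (0.96) and YDJC (0.94), and for ESRRA HSPB1, PPDPF and CLUH (0.96 each). For NR4A1 they were B9D1 (0.95), XRCC1 (0.94) and LLGL1 (0.92), for THRA TANGO6 (0.93), for RXRB MBD1 (0.89), for VDR RPS6KB2 (0.89) and for NR3C1 UGDH (0.83). Among the members themselves ESRRA and NR2F6, with 64.1% and 70.9% exon GC, were most alike (r = 0.84), whereas r was -0.087 between NR2F2 and NR2F6. The values share libraries and their GC trend, and they describe these 12 libraries only.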

How the data were processed

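RNA was measured in 12 libraries of T47D cells, grouped by the treatment in the sample labels. The authors aligned reads to hg19 with TopHat2 2.0.14 and Bowtie2 2.2.6 and counted them per gene with HTSeq, and they deposited whole-number counts without normalization. The HTSeq version, strand setting and annotation are not given in the sources used here, and the sources differ on polyA or total RNA. The 5 summary lines, 66.5% to 67.3% of the reads in the table, were left out, and so were 4238 genes without a single read. Pairwise comparisons used their own 6 libraries and the interaction all 12, in edgeR 4.0.16 in R 4.3.3 (TMM, robust quasi-likelihood F test, 2-sided, Benjamini-Hochberg over 21132 genes, threshold 0.05). The SE was obtained from each fold change and its F statistic, and 95% intervals from the SE. The study's methods name TMM and the voom transformation but no test for single genes, so limma-voom is the alternative nearest to them. Members and gene lists were chosen with earlier results of these data known. Lists were not filtered by level, so their medians can include genes near the floor. All 9 members were named; of other receptors those past the threshold against vehicle (at most 8 per comparison), of other lists at most 4 per comparison by adjusted p, and 3 or fewer genes most like each member. A few genes that this rule names are not reported here. Positions, GC content and lengths came from GENCODE release 44 on GRCh37, whose main chromosomes match hg19; 21539 of 25370 genes matched by symbol, 1498 by an older symbol and 2333 did not, and GC content was known for 98.3% of 11013 genes of at least 3 log2 CPM. Alternatives were DESeq2 size factors, library size alone, filterByExpr, DESeq2 1.42.0, limma-voom 3.58.1, all libraries in 1 fit, the replicate letter as a block, removal of a lowess GC trend (span 0.5) with or without the block, and each library left out. The edgeR test of E2 against vehicle was also run on simulated counts with 1 spread for all genes and no GC trend. That run says nothing on the GC trend of the real libraries or on genes of wider spread. Every member had at least 233 reads in each library.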

Additional observations from a re-analysis of the deposited data

Results flagged for a closer look

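For 2 members the effect of E2 differed with and without anastrozole, by the interaction test of edgeR over all 12 libraries: NR2F6 (0.44 on the log2 scale, adjusted p = 0.00041) and ESRRA (0.215, adjusted p = 0.048). NR2F6 was at 60.0 CPM in vehicle, 52.3 CPM with E2, 50.1 CPM with anastrozole and 59.4 CPM with the combination as group means, and ESRRA at 64.6, 59.6, 59.1 and 63.3 CPM. At the same time 10.9% of all genes passed this test, and with the GC trend of the libraries removed the values were 0.066 for NR2F6 (adjusted p = 0.83) and -0.048 for ESRRA (adjusted p = 0.89).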

How the results depend on the processing

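Genes past the threshold numbered 776 with anastrozole against vehicle, and 419 with filterByExpr, 238 with DESeq2, 15 with limma-voom, 1229 with all libraries in 1 fit and 191 to 1651 without 1 library. For E2 they numbered 2537, and 1433 with DESeq2, 1379 with voom, 1593 with the GC trend removed, 1507 with that and the replicate block, and 1741 to 2808 without 1 library. For the combination they numbered 1065, and 463 with DESeq2, 347 with voom and 682 to 964 without 1 library. For anastrozole against E2 they numbered 280, and 160 with filterByExpr, 107 with DESeq2, 70 with voom, 180 with the replicate block, 515 with the GC trend removed and 107 to 414 without 1 library. For the combination against E2 they numbered 1424, and 647 with DESeq2, 451 with voom, 824 with all libraries, 186 with the GC trend removed, 197 with that and the block, and 885 to 1176 without 1 library. For the combination against anastrozole they numbered 612, and 295 with filterByExpr, 236 with DESeq2, 90 with voom and 234 to 1706 without 1 library. The interaction gave 2295, 552 with the GC trend removed, 646 with that and the block, and 1535 to 3202 without 1 library.

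Members past the threshold with anastrozole numbered 1, and 0 with filterByExpr, DESeq2, voom or the GC trend removed with or without the block, and 0 to 1 without 1 library. With E2 they numbered 3, 1 with DESeq2 or voom, 0 with either GC removal, and 1 to 4 without 1 library. With the combination they numbered 1, 0 with voom and 0 to 1 without 1 library, the 0 being without vehicle library c. Anastrozole against E2 gave 0, and 1 with the GC trend removed. The combination against E2 gave 2, 1 with filterByExpr, 0 with DESeq2, voom, all libraries or either GC removal, and 0 to 1 without 1 library. Against anastrozole it gave 2, 1 with filterByExpr or DESeq2, 0 with voom and 0 to 2 without 1 library. The interaction gave 2, 1 with DESeq2 size factors, filterByExpr, voom or the block, 0 with DESeq2 or either GC removal, and 1 to 3 without 1 library. The sign of a called value turned for NR2F6 with E2 (0.00975 with the GC trend removed, 0.00541 with the block too), for NR2F6 in the combination against E2 (-0.00314) and for the interaction of ESRRA (-0.0476 and -0.0475). Of 52 member results not called, 30 changed sign in at least 1 alternative, the largest such value being 0.14. Whether the letters pair the libraries was not settled, and no source says what they share. Deviations of libraries with the same letter correlated between -0.2 and 0.18, without values for different letters beside them. With the letter as a block, genes past the threshold went from 1065 to 1439 for the combination against vehicle. For E2 against vehicle they went from 2537 to 2207.

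The calls rest on 3 libraries a group. The fold changes are small, and of 11 member results past the threshold vehicle library c, E2 library a and library c of the combination each ended 5 when left out. An offset for GC content removes real changes that follow it, and only 12 genes share the GC content of NR2F6. Except where a value above shows it, the cause of a difference between settings was not tested.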
